A study of Mus musculus with 2 samples.

Results

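Polycomb group proteins are chromatin regulators that keep developmental genes silent through cell division. They work in 2 enzyme complexes: Polycomb repressive complex 2 (PRC2) places methyl groups on lysine 27 of histone H3, and Polycomb repressive complex 1 (PRC1) places ubiquitin on histone H2A, in part after its chromobox subunits have bound that methyl mark. Both complexes are known in neural stem cells and in glioma for holding the Ink4a/Arf locus and lineage genes silent, and PRC2 activity is altered in a class of childhood glioma by mutant histone H3.

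The genes described are 9 core Polycomb genes, taken as every probe on the array that carries their symbols: the PRC2 subunits Ezh1, Ezh2, Eed and Suz12, and the PRC1 subunits Bmi1, Rnf2, Cbx2, Cbx7 and Cbx8. They were 9 of 26878 genes named on the array and had 23 probes. Transcript levels came from 2 single-colour arrays of a mouse glioblastoma stem cell line, grown as neurospheres in serum-free medium with EGF and bFGF from tumours induced with the Sleeping Beauty transposon. One array held cells stably carrying a lentiviral short hairpin RNA (shRNA) against Stat5b (Stat5b knockdown), and the other held cells of the same line carrying a non-target lentiviral hairpin (control). Both groups are thus transduced derivatives of 1 line. Each group has 1 array, so no difference below could be set against a spread between cultures and no test was run. The comparison addresses which transcripts differ when Stat5b is lowered, a signal-dependent transcription factor that acts downstream of Janus kinases.

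The level of a probe is its processed signal, an intensity in arbitrary units corrected for background by the scanner software. Differences are given on the log2 scale, knockdown minus control, after each array was scaled to its 75th percentile. The ± beside a probe's difference is the scanner software's own error, which does not cover differences between cultures. The ± of a gene mean combines the errors of its probes as if independent. It therefore shrinks with more probes and does not cover disagreement between them. Different probes of 1 gene differed with a measured SD of 0.310 and replicate spots of 1 probe with an SD of 0.0576. A gene's value averages those of its probes that were well above background on each of the arrays, and it is counted as higher or lower at 2-fold, a log2 difference of 1 in size. On that rule 16354 genes were measured, with a median difference of 0.01. Stat5b itself had a signal of 498 on the knockdown array and 1991 on the control array at its brighter probe, a difference of -2.001 ± 0.20. Signals of different probes depend on the probe and are not compared with each other.

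None of the 9 genes reached 2-fold in either direction, where 3.67% of all measured genes were higher by that rule, 2.41% lower, and 6.08% either. Their median difference was -0.05, with 4 genes above 0 and 5 below, where 48.8% of all measured genes lay below 0. Their range ran from -0.49 for Ezh2 to 0.55 for Cbx8. All 4 PRC2 genes had gene means below 0, all 3 chromobox readers of PRC1 lay above 0, and the PRC1 core genes Bmi1 and Rnf2 lay within 0.05 of 0. At their brightest probes the PRC2 genes were not all below 0: Ezh1 was at 0.79 and Suz12 at -0.00. Of the 22 probes well above background on both arrays, 1 passed 2-fold, a dim Ezh1 probe, against 6.15% of all gene probes. The share was 6.56% among gene probes with a signal under 100 on both arrays, as that Ezh1 probe had, and 4.29% among those with at least 100 on both, as 18 of the 22 had and of which 0 passed. Of the 22 probes 3 lie in the last 64 rows of the array, where 7.75% of gene probes differed 2-fold or more, against 5.84% in the other rows: the brightest of Ezh1 and of Rnf2, and the second of Suz12.

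**Figure D1:**
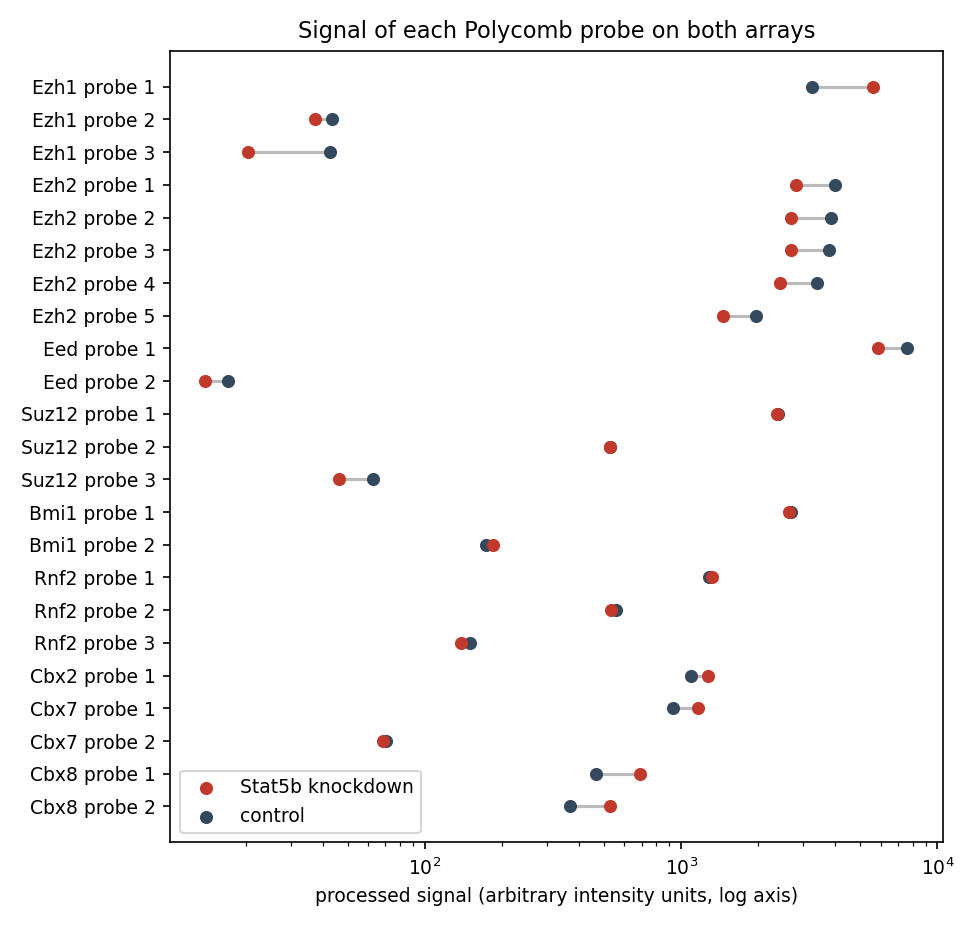
Processed signal (arbitrary intensity units, log axis) of each of the 23 Polycomb probes, with red points for the Stat5b knockdown array and dark points for the control array; the probes of a gene are numbered from bright to dim on the control array. The 5 Ezh2 probes lie lower on the knockdown array, both Cbx8 probes lie higher, and the points of Bmi1, Rnf2 and the brighter Suz12 probes overlap.

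Ezh2, on chromosome 6, is the methyltransferase of PRC2 in dividing cells, and it had the lowest gene mean of the 9 as reported (without the last 64 rows of the array Ezh1, at -0.64, was lower). It was read by 5 probes of 60 bases, all matched to the same RefSeq transcript. The sequences of 4 of them are shown because they are distinct stretches of the transcript that gave nearly the same ratio, each with at least 1 reading frame free of stop codons. Probe 2 also had 1 such frame and a like ratio. It was left out on a guess that it is untranslated. The place of the probes in the transcript could not be computed, and an open frame does not show that a probe is coding.
Ezh2 probe 1: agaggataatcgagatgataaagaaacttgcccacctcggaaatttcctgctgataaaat
Ezh2 probe 3: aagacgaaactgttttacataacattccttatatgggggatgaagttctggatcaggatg
Ezh2 probe 4: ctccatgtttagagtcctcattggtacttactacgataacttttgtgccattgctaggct
Ezh2 probe 5: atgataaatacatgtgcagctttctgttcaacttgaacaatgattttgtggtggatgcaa

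Probe 1 had a signal of 2815 on the knockdown array and 4000.1 on the control array. Probe 2 had 2677 on the knockdown array and 3848 on the control array, and probe 3 had 2680.1 on the knockdown array and 3759 on the control array. Probes 4 and 5 had 2422 and 1450.1 on the knockdown array, against 3381 and 1963 on the control array. Every Ezh2 probe was thus dimmer on the knockdown array, by 26.2% to 30.5% of its control signal. On the log2 scale the 5 differences lay between -0.52 and -0.44, with an SD of 0.0328 over probes. The gene mean was -0.49 ± 0.09, or 71.3% of control. Of 268 genes with 5 or more measured probes, 4 (1.49%) had an SD over probes this small. In that set 54 genes (20.1%) had every probe below 0, and 8 (2.99%), Ezh2 included, had every probe as low as the least lowered Ezh2 probe. Among all measured genes 11.4% were lower than Ezh2, and among the 1385 genes within 0.5 log2 units of its mean level 10.5% were.

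Eed, on chromosome 7, binds the methyl mark and holds the catalytic subunit in an active shape. Its bright probe had a signal of 5879 on the knockdown array and 7643 on the control array, a difference of -0.38 ± 0.20, or 76.9% of control. Its second probe, matched to a cDNA clone and not to a RefSeq transcript, had 13.9 on the knockdown array and 17.0 on the control array, and passed the background limit in control cells alone. Eed therefore rests on 1 probe, lower than 83.6% of measured genes.

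Suz12, on chromosome 11, is the scaffold that holds PRC2 together. Its brightest probe had 2370.2 on the knockdown array and 2376 on the control array, and its second had 527.6 on the knockdown array and 527.4 on the control array. The 2 signals of each of these probes were nearly equal, with differences of -0.00 ± 0.20 for both. The remaining probe, of an Ensembl transcript and dim, had 46.1 on the knockdown array and 62.7 on the control array (-0.44 ± 0.23). It alone sets the gene mean of -0.15 ± 0.12. Of the 3 PRC2 core partners, Ezh2 and Eed were thus lower at their bright probes, and Suz12 was level at its own.

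Ezh1, also on chromosome 11, is the second PRC2 methyltransferase, known for a weaker enzyme activity and for expression in cells that have stopped dividing. Its RefSeq probe had a signal of 5624 on the knockdown array and 3253 on the control array, 1.73-fold higher (0.79 ± 0.20). Its other probes, both assigned to 1 Ensembl transcript, were dim. One had 37.1 on the knockdown array and 43.2 on the control array (-0.22 ± 0.26), and the other had 20.4 on the knockdown array and 42.4 on the control array (-1.06 ± 0.32). The 3 probes spanned a range as wide or wider in 43 of 7244 genes with several measured probes (0.594%), and 32% of those genes had probes of opposite sign. The gene mean of -0.16 ± 0.15 lies near the middle probe alone. The part of the bright probe's place on the array in its value was not tested. Taken at that probe, Ezh1 differed from Ezh2 by 1.28 log2 units, in the opposite direction.

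**Figure D2:**
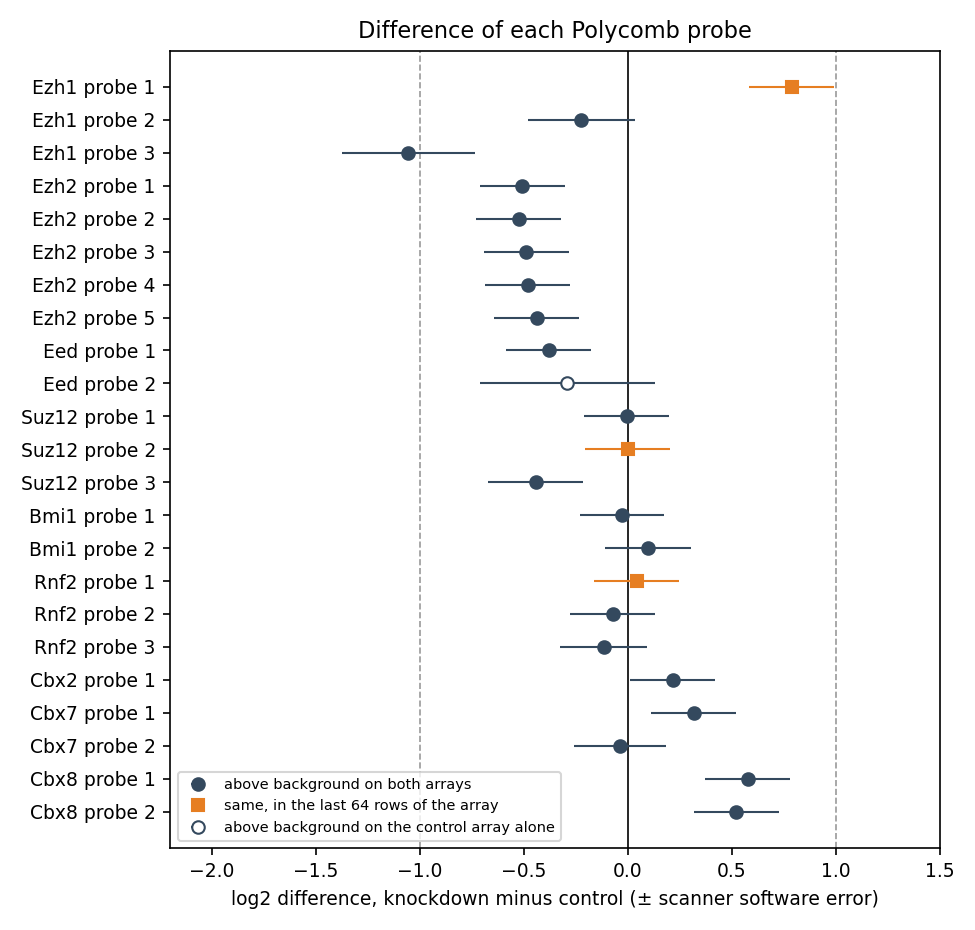
Log2 difference, knockdown minus control, of each Polycomb probe, with bars for the scanner software's error, dashed lines at 2-fold, orange squares for measured probes in the last 64 rows of the array and an open circle for the Eed probe above background on the control array alone (also in those rows). The Ezh2 probes cluster between -0.52 and -0.44, the Cbx8 probes at 0.52 and 0.58, and the Ezh1 probes spread from -1.06 to 0.79.

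In PRC1, Rnf2 (Ring1B) is the ubiquitin ligase and Bmi1 (Pcgf4) its partner, a gene known for self-renewal of neural stem cells through silencing of the Ink4a/Arf locus. The brightest Rnf2 probe, on chromosome 1, had 1321 on the knockdown array and 1281 on the control array. The other 2 probes had 531 and 139 on the knockdown array, against 558 and 150.02 on the control array. The 3 differences ran from -0.12 to 0.04, and the gene mean was -0.05 ± 0.12. Bmi1, on chromosome 2, had 2626 and 185 on the knockdown array, against 2676 and 172 on the control array, at its 2 probes. Its mean was 0.04 ± 0.15, and its probes lay on either side of 0. With 1 array per group these values do not show that either gene was unchanged.

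The chromobox subunits carry the reader domain that docks PRC1 on the methyl mark, and they replace one another in the complex. Cbx8 had the highest gene mean of the 9 as reported, although Ezh1, at 0.79, was higher with the brightest probe, with brighter probes alone and with RefSeq probes alone. Its brighter probe had 691 on the knockdown array and 463 on the control array (0.58 ± 0.20), and its other probe 528 on the knockdown array and 368 on the control array (0.52 ± 0.20). Both probes were brighter on the knockdown array by similar amounts, and the gene mean was 0.55 ± 0.14, or 1.46-fold. Of 4548 genes with 2 measured probes 38.5% had both above 0, and 7.67% had both as high as the lower Cbx8 probe. Among the 2176 genes within 0.5 log2 units of its mean level 11.5% were higher than Cbx8. Cbx2, which like Cbx8 lies on chromosome 11, had 1271 on the knockdown array and 1093 on the control array at its single probe (0.22 ± 0.20). Cbx7, on chromosome 15 and the main chromobox of embryonic stem cells, had 1159 on the knockdown array and 930.1 on the control array at its brighter probe (0.32 ± 0.20). Its dim probe, of an Ensembl transcript, had 68.6 on the knockdown array and 70.3 on the control array (-0.04 ± 0.22), so that the mean of 0.14 ± 0.15 rests on the brighter one.

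The other Polycomb genes were taken from 3 lists of further PRC2 genes, further PRC1 genes, and the H2A deubiquitinase complex PR-DUB with the enzymes that remove the lysine 27 mark. Together they held 52 genes, of which 49 were measured. By the 2-fold rule 1 of these was higher and 1 lower, against 3.67% and 2.41% of all measured genes. Their median was -0.05, with 22 above 0 and 27 below, where 48.8% of all measured genes lay below 0. Scml4, a Scm-like relative of PRC1 components, was the lower one, at -1.16 ± 0.19. Its probes had 313 and 19.2 on the knockdown array, against 668 and 44.8 on the control array, the dimmer in the last 64 rows. With normexp background correction it fell short of 2-fold.

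Among further PRC2 genes, 9 of 10 were measured and 0 reached 2-fold, with 3 above 0 and 6 below. Of all measured genes 6.08% reached 2-fold and 48.8% lay below 0. Jarid2, an accessory subunit that helps recruit PRC2 to its targets, had the highest value of the further PRC2 genes. Its measured probes had 747 and 261 on the knockdown array, against 415 and 155 on the control array, which gave 0.80 ± 0.15. Next was Aebp2, another accessory subunit of the same PRC2 form, at 0.16 ± 0.14. The lowest were Phf19 (-0.27 ± 0.15) and Phf1 (-0.22 ± 0.20), Polycomb-like proteins that tether PRC2 to DNA and to histone marks. The histone-binding core subunits Rbbp4 and Rbbp7 were at -0.05 ± 0.14 and -0.02 ± 0.12, each with a difference smaller than its error. Ezhip, an inhibitor of PRC2, did not stand well above background in either group.

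Paralogues within PRC1 had differences of either sign. Beside Cbx8, Cbx2 and Cbx7, which lay above 0, the chromobox gene Cbx6 was at -0.18 ± 0.14. Of the 6 PCGF genes, which set the kind of PRC1 complex, Pcgf2 (Mel18) was at 0.30 ± 0.14, Pcgf1 at 0.10 ± 0.20 and Pcgf6 at 0.06 ± 0.14, beside Bmi1. Pcgf5 was at -0.49 ± 0.14 and Pcgf3 at -0.36 ± 0.11, and these 2 share a kind of variant PRC1. Ring1, the paralogue of Rnf2, was at 0.56 ± 0.20 from 1 probe, with 416 on the knockdown array and 283 on the control array. The polyhomeotic subunits Phc1, Phc2 and Phc3 were at -0.05 ± 0.18, -0.15 ± 0.13 and -0.29 ± 0.17. Of 15 measured components of variant PRC1, 6 lay above 0 and 9 below, where 48.8% of all measured genes lay below 0. The 15 ran from Usp7, a deubiquitinase, at -0.76 ± 0.14 to Auts2, an activator in neurons, at 0.46 ± 0.12.

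**Figure D3:**
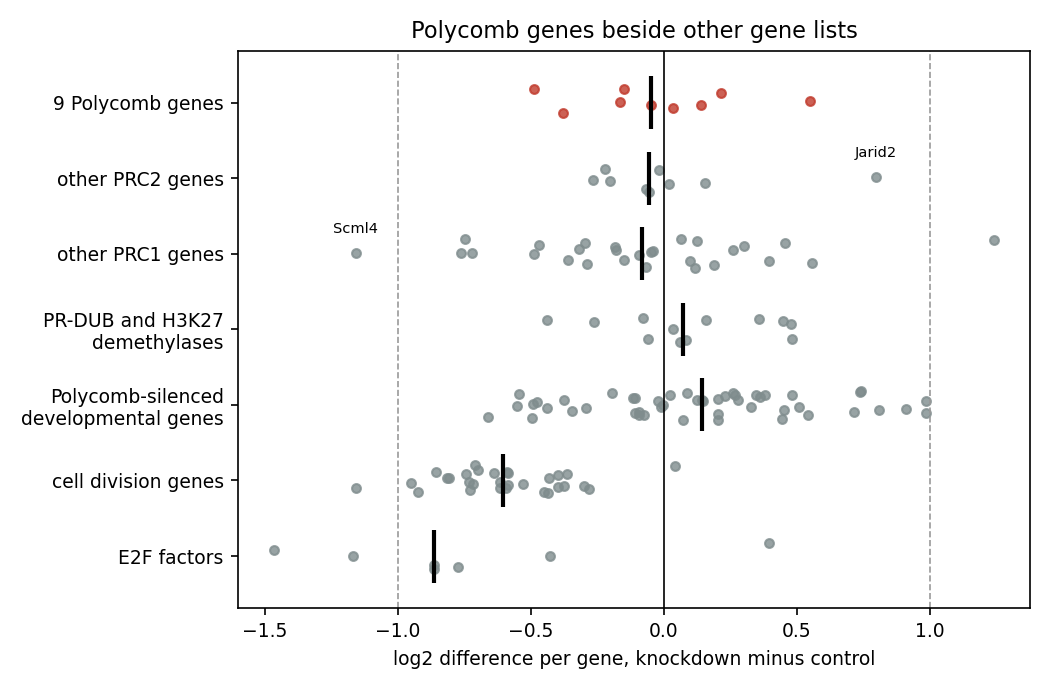
Log2 difference per gene, knockdown minus control, for the 9 Polycomb genes (red) and for the genes of 6 other lists (grey), with a black bar at each list's median and dashed lines at 2-fold. The Polycomb lists centre near 0 with medians from -0.08 to 0.07, while cell division genes and E2F factors have medians of -0.60 and -0.86.

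Ezh2 and Eed are known as targets of E2F factors, a family with both activators and repressors of cell cycle genes. Cell division genes and E2F factors are therefore given beside them. Of 30 cell division genes 29 lay below 0, with a median of -0.60, and of 7 E2F factors 6 did, with a median of -0.86. Of all measured genes 48.8% lay below 0. The 7 factors mix both kinds, so the median of -0.86 does not describe the activators alone. E2f6 is not among the 7, as it was listed with variant PRC1, and it was at -0.07 ± 0.12. The activator E2f2 was at -1.46 ± 0.14 and the repressor E2f5 at -1.17 ± 0.21. The activator E2f1, read by 1 probe in the last 64 rows, was at 0.40 ± 0.20. Ccna2, the cyclin of S phase and mitosis, was the cell division gene past 2-fold, at -1.16 ± 0.14. Of all measured genes 2.41% were at least 2-fold lower. Ezh2 and Eed were thus lower together with genes of dividing cells, and fewer dividing cells and less transcript per cell cannot be told apart in such bulk RNA. The part of the lower level of cell division genes in the Ezh2 and Eed values was not tested.

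The promoter of Ezh2 is shown because Ezh2 was lower at every one of its 5 probes. RefSeq promoter windows of 300 bases, 250 before and 50 after the start, were present for 8 of the 9 genes on assembly GRCm38.p6. They were searched on both strands for 2 E2F motifs (TTTCGCGC and TTTGGCGC), for the STAT motif TTCNNNGAA and for CCAAT, which do not overlap each other in these windows. An E2F motif was in 1 of the 8, that of Ezh2, and in 0.813% of 32851 promoters of this length. The STAT motif was in 0 of the 8 and in 8.30% of all, and CCAAT was in 5 of the 8 and in 37.4% of all. The Ezh2 window held CCAAT 3 times, as 3.37% of promoters did at least. In the stretch below, on the minus strand at chr6:47595011-47595280 and ending 20 bases past the start, capitals mark CCAAT (or ATTGG, its reverse complement) and the E2F letters at positions 4 to 11 after the start.
Ezh2 promoter: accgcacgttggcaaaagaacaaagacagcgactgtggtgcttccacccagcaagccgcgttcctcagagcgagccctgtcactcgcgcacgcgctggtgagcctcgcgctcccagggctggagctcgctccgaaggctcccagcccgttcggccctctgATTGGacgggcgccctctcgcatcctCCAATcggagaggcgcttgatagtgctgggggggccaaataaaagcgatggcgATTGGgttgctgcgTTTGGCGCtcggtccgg
These are matches of letters and do not show binding. All 8 windows were rich in CpG, with 17 to 41 CG pairs against a median of 7 over all promoters. Both E2F motifs hold CG pairs, so their share over all promoters need not hold for CpG-rich windows. Other forms of the E2F site were not searched.

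Genes that Polycomb is known to silence were read from a list of 78 developmental regulators. Of these 49 were measured, 26 were not well above background on either array, and 3 were so on 1 array alone. Of all 26878 named genes 16354 were measured. None of the 49 genes reached 2-fold, where 3.67% of all measured genes were higher by that rule and 2.41% lower. With 29 above 0 and 20 below, their median was 0.14, against 0.01 for all genes, of which 48.8% lay below 0. The highest were the neuronal factor Neurod1 (0.99 ± 0.29) and Hoxa7 (0.98 ± 0.20), which specifies position along the body axis. Hoxa7 had 972 on the knockdown array and 491 on the control array, and Neurod1 was dim, with 50.2 on the knockdown array and 25.3 on the control array. The lowest were Irx5, a homeobox factor (-0.66 ± 0.22), and Cdkn2b (-0.55 ± 0.14), an inhibitor of the cyclin D kinases. Cdkn2a, the Ink4a/Arf gene beside Cdkn2b and the best known target of Bmi1, was at 0.26 ± 0.14. Its probes had 45000.1 and 2683 on the knockdown array, against 38246 and 2194 on the control array, so that it was bright in both. The neighbours Cdkn2a and Cdkn2b thus had differences of opposite sign. Hoxc13 was detected above background in knockdown cells alone, with a bound of 3.19-fold higher there (signals of 38.7 on the knockdown array and 9.14 on the control array). Hoxc12 was detected in control cells alone, with a bound of 6.90-fold higher in them (signals of 2.96 on the knockdown array and 89.5 on the control array), at a spot in the last 64 rows. Each such bound sets the bright array's level over the higher of the dim spot's own level and the lowest level well above background. It leaves out the software error, so the fold could be smaller than the bound. That error was 0.51 for the log2 difference of Hoxc13 and 1.45 for that of Hoxc12, each read by 1 probe.

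The labelled stem cell identity was checked against markers. Of 12 neural stem cell markers 8 were measured on both arrays, with the intermediate filaments Nes at 15868 on the knockdown array and 18174 on the control array and Vim at 88538 on the knockdown array and 96090.1 on the control array. Sox2 and Fabp7 were not well above background on either array. Olig2, at a spot in the last 64 rows, was detected in knockdown cells alone, with a bound of 4.40-fold. The software error of its log2 difference, which the bound leaves out, was 0.64. Pax6 (-0.70 ± 0.15) and Hes1 (-0.33 ± 0.20) were the lowest measured, and Sox9 (0.40 ± 0.14) the highest. Of 8 astrocyte markers 5 were measured, 4 of them above 0, and the aldolase gene Aldoc was past 2-fold (1.19 ± 0.07). S100b was detected in knockdown cells alone, with a bound of 10.1-fold that leaves out a software error of 0.47 in log2 units. Gfap was detected in control cells alone. The sum of each astrocyte gene's highest signal was 4288 on the knockdown array and 2058 on the control array, of which Aldoc alone gave 3929 on the knockdown array and 1832 on the control array. Slc1a3 was not detected well above background in either group. The same sum was 119214 on the knockdown array and 126678 on the control array for neural stem cell markers, and 2600 on the knockdown array and 2246 on the control array for oligodendrocyte markers. It was 5769 on the knockdown array and 5150.2 on the control array for neuron markers, and 12996 on the knockdown array and 11803 on the control array for microglia and immune markers. For endothelial and mural markers it was 27692 on the knockdown array and 27196 on the control array. Such sums are led by the few brightest probes of a list and do not rank cell types, since signals depend on the probe. Ptprc gave 4831 of the immune sum on the knockdown array from 1 probe in the last 64 rows. Its other probes read at most 10.03 there. Snap25 likewise gave 3390 of the neuron sum on the knockdown array from 1 probe in those rows, and its other probes read 20.1 and 4.44 there. Measured were 6 of 7 oligodendrocyte, 3 of 7 neuron, 6 of 10 microglia and immune, and 6 of 8 endothelial and mural markers, with medians from 0.01 to 0.17. Pdgfrb (2.19 ± 0.33, signals of 76.1 on the knockdown array and 16.6 on the control array) was the 1 gene of these 4 lists past 2-fold. Of all measured genes 3.67% were at least 2-fold higher and 48.8% lay below 0. The part of the cell type markers in the Polycomb values was not tested.

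The values of 4 genes moved little with the processing, but several alternatives could not move them. Over 11 alternatives Ezh2 ranged from -0.51 to -0.48, Eed from -0.39 to -0.34, Cbx8 from 0.52 to 0.58 and Cbx2 from 0.21 to 0.25. Eed and Cbx2 each rest on 1 measured probe, a RefSeq probe outside the last 64 rows, so choosing among measured probes left their values fixed. With brighter probes alone and without the last 64 rows, Ezh2 kept all 5 probes and Cbx8 both. Suz12 ranged from -0.22 without the last 64 rows to -0.00 with brighter or RefSeq probes alone, and Cbx7 from 0.13 to 0.32, the higher value with the brightest probe, with brighter probes or with RefSeq probes alone. Bmi1 and Rnf2 changed sign under 2 and 1 of the alternatives, within 0.1 of 0. Ezh1 was at 0.79 with the brightest probe, with brighter probes alone and with RefSeq probes alone, at 0.15 with normexp, and at -0.64 without the last 64 rows.

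**Figure D4:**
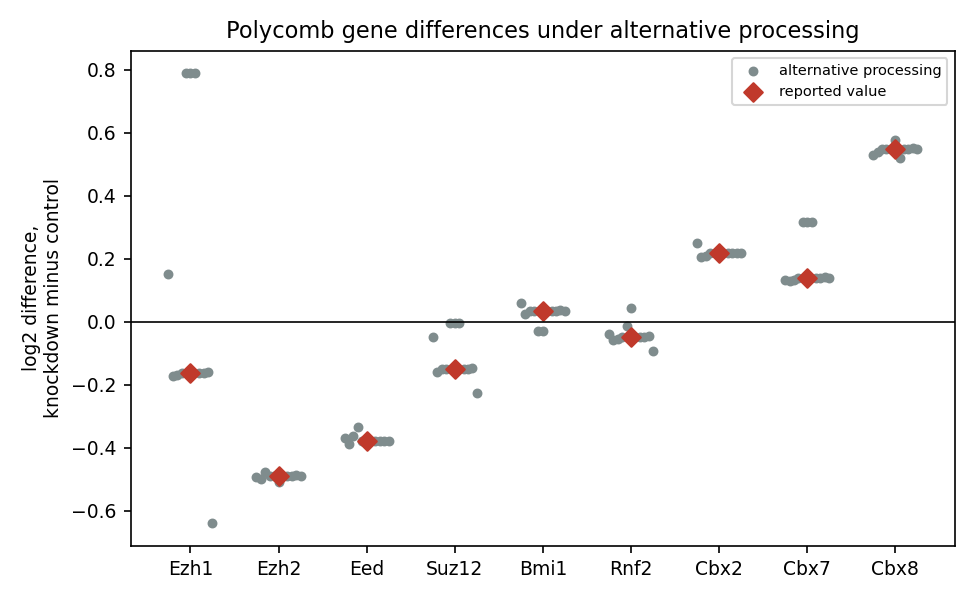
Log2 difference, knockdown minus control, of the 9 Polycomb genes as reported (red diamonds) and under 11 alternative ways of processing (grey points). Ezh2, Eed and Cbx8 stay within 0.1 of their reported values, while Ezh1 ranges from -0.64 to 0.79.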

How the data were processed

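Each of the 2 arrays has a deposited scanner file with an intensity for every spot, made by Agilent's Feature Extraction software (version 12.1.0.3) per the file headers, and flags of 0 or 1 (other values) for background, saturation and outliers, also deposited. The authors' table holds log2 values of the same signals. Set against the scanner files, it equals the log2 processed signals shifted by a single constant on each array, which settles its scale, centring and direction. Its column medians were -3.83 for knockdown and -3.83 for control.

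Here, outlier spots were dropped (94 on the knockdown array and 112 on the control array), log2 processed signals were averaged per probe and the 75th percentile of 56594 non-control probes was subtracted. Of these, 58.6% were well above background on the knockdown array and 59.5% on the control array, and 0 spots were saturated. The number of arrays limits the precision. Accessions and symbols were updated, and chromosomes assigned, from RefSeq genes on GRCm38. The file headers name build mm9. Both arrays lie on 1 slide, so the groups do not differ in slide. No test was run, as groups have no replicates; the code was tested on simulated data. The normexp alternative used limma 3.58.1 on median signals with an offset of 50.

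Members and lists were chosen with earlier results of these data known. Named from each other list were genes past 2-fold, otherwise the 2 highest and 2 lowest, and genes with a bound of 2-fold or more. The PCGF, polyhomeotic and Rbbp families, Cbx6, Ring1, Ezhip, Usp7, Auts2, Cdkn2a, E2f1, E2f6 and the named cell type markers without a bound were added after their values were seen. No gene of like pattern is named, since 2 arrays give 1 difference per gene. A result that met the naming rule is not reported here.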

Additional observations from a re-analysis of the deposited data

How the results depend on the processing

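The 9 Polycomb genes held no gene past 2-fold under any of the 11 alternatives run. Planned normexp on mean signals was not run, because the files used here hold median signals, and normexp on those was chosen after the files were seen. With normexp, 191 of 16354 genes were at least 2-fold higher and 167 lower, the counts of other Polycomb genes were 0 higher and 0 lower, the median of the 9 genes was 0.0583 and that of the other Polycomb genes -0.0123. Without the filter on dim probes the counts were 1282 higher and 1000 lower of 26878 genes, and 2 higher and 2 lower of 78 Polycomb-silenced genes. With brighter probes alone the counts were 211 higher and 229 lower of 10362 genes, 0 of 42 other Polycomb genes were higher, and their median was 0.0012. With the brightest probe 0 other Polycomb genes were higher and the median of the 9 genes was 0.0426. With RefSeq probes alone that median was 0.0355 and the median of the other Polycomb genes 0.0141. As reported, the medians were -0.05 and -0.05, and the counts were 600 higher and 394 lower of 16354 genes, 1 higher and 1 lower of 49 other Polycomb genes, and 0 and 0 of 49 silenced genes. Dropping or adding dim probes changes how many genes are counted. Normexp was run with an offset of 50 added to each signal, which by construction draws differences of dim probes toward 0. The part of that offset in the normexp values, and the cause of the other shifts, were not tested. No paired analysis was possible because each group has 1 array. The dim and bright probes of Ezh1, Suz12 and Cbx7 differed. Their dim probes are those of Ensembl transcripts and their bright ones those of RefSeq transcripts, so signal and transcript cannot be told apart.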

Other observations

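The genes for removal of Polycomb marks were measured for 12 of 13 list members, with 8 above 0 and 4 below and 0 past 2-fold. Of all measured genes 48.8% lay below 0 and 6.08% were past 2-fold. Ogt, the enzyme that attaches N-acetylglucosamine and a partner of PR-DUB, was at 0.48 ± 0.14, and Mbd6, another partner, at 0.48 ± 0.20. The lowest were Hcfc1 (-0.44 ± 0.22) and Asxl1 (-0.26 ± 0.15), also PR-DUB components. Bap1, the deubiquitinase itself, was at 0.04 ± 0.15. The lysine 27 demethylases Kdm6b, Kdm6a and Uty were at 0.36 ± 0.15, 0.06 ± 0.19 and -0.08 ± 0.21. Bap1 and these demethylases were named after their values were seen.

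The 4 Hox clusters differed in how many genes were measured: 10 of 11 Hoxa, 5 of 10 Hoxb, 6 of 9 Hoxc and 0 of 9 Hoxd genes. Measured Hoxa genes lay above 0 in 7 and below in 3, from -0.34 to 0.98, and Hoxc genes above 0 in 5 and below in 1, from -0.19 to 0.74. Hoxb genes lay above 0 in 1 and below in 4, from -0.48 to 0.09. Over the whole array 16354 of 26878 named genes were measured, and 48.8% of those lay below 0. The differences between clusters were not tested.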
